A study of Homo sapiens with 4 samples.

Results

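The hemidesmosome and laminin-332 genes taken here are ITGB4, ITGA6, LAMA3, LAMB3, DST, PLEC and CD151, described through every probe set that the platform annotation assigns to 1 of them alone. The 7 genes had 21 such probe sets out of 54675 on the array. They belonged to 6 genes, since no probe set is named for LAMA3 in the annotation used here. Expression had been measured in PC14, a cell line from human non-small-cell lung cancer, after sorting, on one-colour Affymetrix arrays with 1 array per subpopulation. The subpopulations were E-cadherin-low CD133-high cells, E-cadherin-low CD133-low cells, E-cadherin-high CD133-high cells and E-cadherin-high CD133-low cells. All 4 come from the same line and were grown alike. E-cadherin was sorted first, and CD133 was then sorted by green fluorescent protein driven from the P1 promoter of the CD133 gene in a lentiviral vector, so the CD133 groups are defined by a reporter and not by the protein itself. No difference below has a replicate check, and the ratios are descriptions with no test. The 1 model fitted, an additive limma fit with 1 residual degree of freedom, called no member at an adjusted p of 0.05. Of 32551 probe sets it called 17 higher and 18 lower in E-cadherin-low cells. In CD133-high cells it called 431 higher and 226 lower. With shares that low, 0 of the 10 members tested says nothing about them.

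The hemidesmosome is the junction by which an epithelial cell holds to its basement membrane. Integrin alpha-6 (ITGA6) and integrin beta-4 (ITGB4) form its transmembrane receptor, with the tetraspanin CD151 as a partner in the membrane. On the outside the receptor binds laminin-332, a secreted trimer whose alpha-3 and beta-3 chains are encoded by LAMA3 and LAMB3. On the inside the plakins plectin (PLEC) and dystonin (DST) tie it to keratin filaments. Integrin alpha-6 also pairs with integrin beta-1, while integrin beta-4 has integrin alpha-6 as its only partner.

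The deposited values are signals on a linear scale. The floor of an array was set at the 50th percentile of its probe sets other than controls, a signal of 53.7 to 60.3, and lower signals were set to it. Of the 21 probe sets, 6 lay above the floor on all 4 arrays, 4 on some of them and 11 on none. The 11 belonged to ITGB4, DST, PLEC and LAMB3 and read 2.07 to 49.8. A signal below the floor shows no level for its gene. Each array had 12309 to 12459 of 19775 named genes above its floor. CDH1, the gene for E-cadherin, followed the sort, with signals of 347 and 528 in E-cadherin-low CD133-high and CD133-low cells, against 5548 and 3546 in the matching E-cadherin-high cells. PROM1, the gene for CD133, lay below the floor on all 4 arrays, so its probe set gives no check of the reporter sort.

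**Figure D1:**
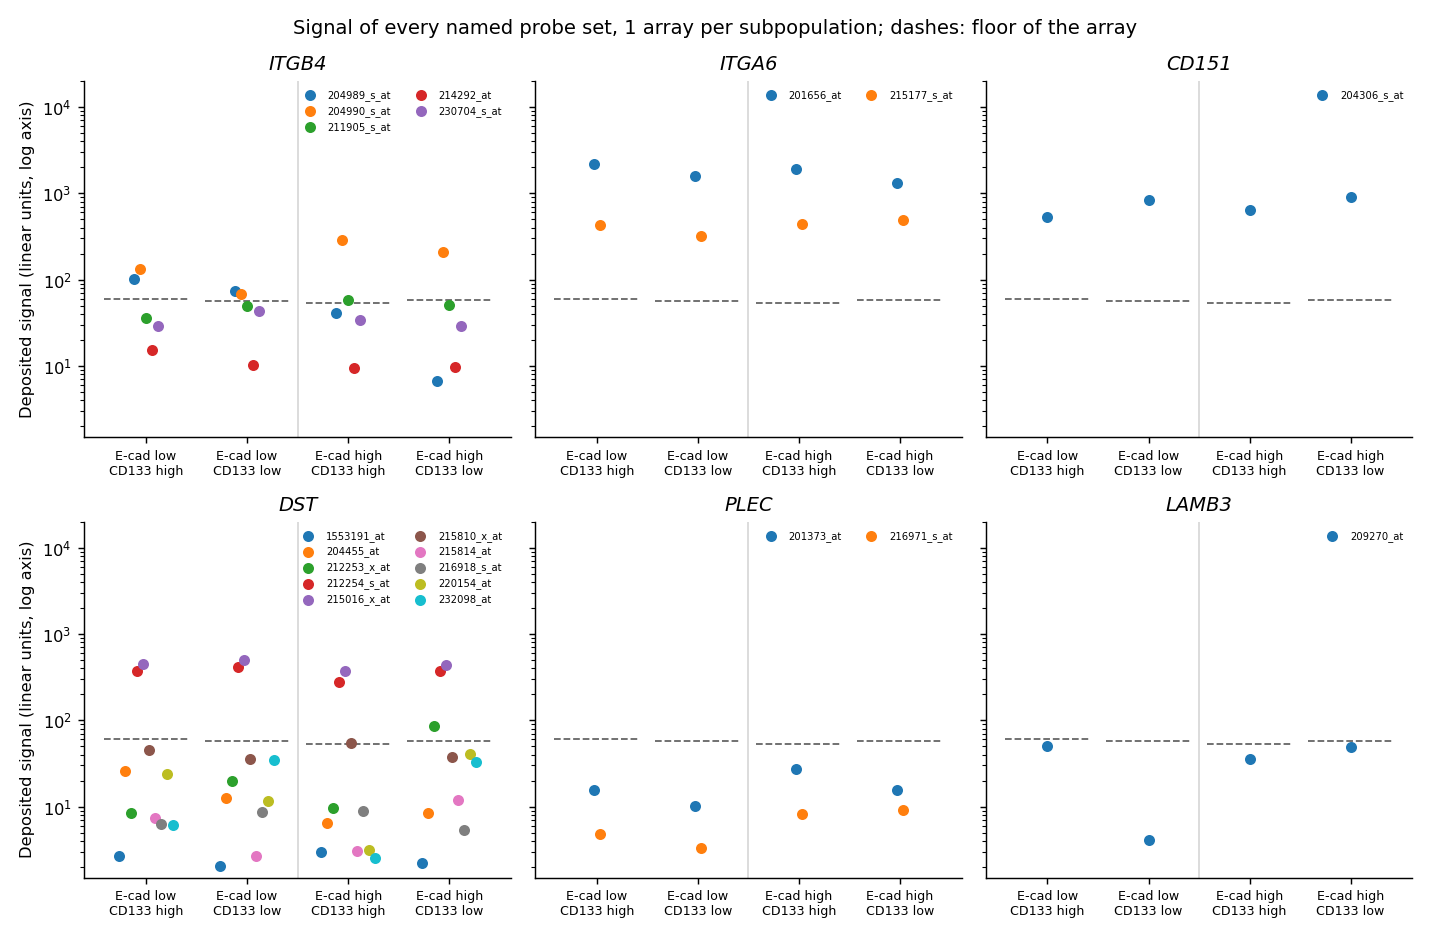
Deposited signal (log axis) of all 21 probe sets on the 4 arrays, 1 panel per gene, with the floor of each array as a dashed line. ITGA6 and CD151 lie above the floor everywhere, PLEC and LAMB3 lie below it everywhere, and ITGB4 and DST have probe sets on both sides.

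ITGB4, the beta chain of the receptor, was the 1 member with a probe set past 2-fold for the E-cadherin sort, and its probe sets did not give 1 direction. Probe set 204990_s_at read 133 in E-cadherin-low CD133-high cells and 68.7 in E-cadherin-low CD133-low cells, against 287 in E-cadherin-high CD133-high cells and 208 in E-cadherin-high CD133-low cells. Both E-cadherin-low arrays were below both E-cadherin-high arrays, as in 13.7% of the 22798 probe sets above the floor on all 4 arrays. The log2 ratio of E-cadherin-low over E-cadherin-high cells was -1.11 where CD133 was high and -1.60 where it was low. In RNA of whole subpopulations, fewer cells with the transcript and less of it per cell cannot be told apart.

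Probe set 204989_s_at of the same gene went the other way. It read 103 and 74.3 in E-cadherin-low CD133-high and CD133-low cells, against 41.3 and 6.78 in E-cadherin-high CD133-high and CD133-low cells. The E-cadherin-low signals were above the floor and the E-cadherin-high signals below it, which bounds the difference at no less than 1.92-fold and 1.29-fold higher in E-cadherin-low cells. Another probe set, 211905_s_at, was above the floor on 1 array alone, with 57.9 in E-cadherin-high CD133-high cells, and gave no ratio for the E-cadherin sort. The remaining 2 probe sets of ITGB4 read 9.34 to 43.8, below the floor throughout. The 3 probe sets that rose above a floor all carry the _s_at suffix, which marks probes shared between transcripts, and which transcripts each one reads is not given in the files used here.

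For CD133 the ITGB4 ratios stayed under 2-fold. Probe set 204990_s_at read 133 in CD133-high against 68.7 in CD133-low cells among E-cadherin-low cells, a log2 ratio of 0.95, and 287 against 208 among E-cadherin-high cells, a log2 ratio of 0.46. Probe set 204989_s_at gave 0.47 among E-cadherin-low cells and lay below the floor on both arrays of E-cadherin-high cells. By 204990_s_at the highest signal thus fell in E-cadherin-high CD133-high cells and the lowest in E-cadherin-low CD133-low cells, over 2.06 log2 units. The E-cadherin ratio among CD133-high cells differed from that among CD133-low cells by 0.49 on the log2 scale, and this difference was not tested.

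Among 10891 genes above the floor on all 4 arrays, those closest to 204990_s_at in pattern were MAST4, EPCAM and GMPR. Closeness is the root mean square difference of log2 signals centred over the 4 arrays, and it was 0.04 for MAST4 and 0.13 each for EPCAM and GMPR. EPCAM, an adhesion molecule of epithelial cells, read 6554 and 3760.4 in E-cadherin-low CD133-high and CD133-low cells, against 12326 and 10717 in E-cadherin-high CD133-high and CD133-low cells. MAST4, a protein kinase gene, read 193 and 101 in the E-cadherin-low cells, against 437 and 322 in the E-cadherin-high cells, also in the order CD133-high then CD133-low. These 4 points per gene describe likeness on these arrays only.

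ITGA6, the alpha chain of the receptor, was above the floor on every array by both of its probe sets. Probe set 201656_at read 2207 and 1598 in E-cadherin-low CD133-high and CD133-low cells, against 1938 and 1310.2 in E-cadherin-high CD133-high and CD133-low cells. The log2 ratios for the E-cadherin sort were 0.19 and 0.29. They were opposite in sign to those of 204990_s_at of its partner ITGB4, and the same in sign as the bounds of 204989_s_at. For CD133, high over low, they were 0.47 among E-cadherin-low and 0.57 among E-cadherin-high cells, so the CD133-high array was the higher of each pair. Its other probe set, 215177_s_at, read 435 and 324 in the E-cadherin-low cells, against 437 and 497 in the E-cadherin-high cells. There the E-cadherin ratios were -0.01 and -0.62, and the CD133 ratios 0.42 and -0.19, so the 2 probe sets of ITGA6 agreed in neither comparison throughout.

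Promoter windows are shown for ITGA6, a gene measured on every array, and for LAMB3, measured on none. DST also had probe sets above the floor on every array, and its windows are not printed. For the genes shown, only windows that hold a motif are printed. The E-box CACCTG was looked for because of ZEB1, which binds it and represses CDH1. By its brightest probe set, ZEB1 was higher in E-cadherin-low cells by log2 ratios of 2.95 and 4.03. Its other probe sets had the same sign and smaller values. They were 1.90 and a bound of 1.34 for 212758_s_at, and bounds of 1.87 and 1.33 for 210875_s_at and of 0.65 and 0.03 for 239952_at. The sequences are RefSeq windows of GRCh38.p14 from 250 bases before to 50 bases after a listed transcript start. Capitals mark each match, on either strand, to CACCTG or to TGANTCA, the site bound by AP-1 factors. The ITGA6 window lies at chr2:172427086-172427385 on the plus strand and holds CACCTG at 2 places. The LAMB3 windows lie on the minus strand, at chr1:209652376-209652675 with 1 match to CACCTG and at chr1:209651325-209651624 with 1 match to TGANTCA.
ITGA6 upstream start: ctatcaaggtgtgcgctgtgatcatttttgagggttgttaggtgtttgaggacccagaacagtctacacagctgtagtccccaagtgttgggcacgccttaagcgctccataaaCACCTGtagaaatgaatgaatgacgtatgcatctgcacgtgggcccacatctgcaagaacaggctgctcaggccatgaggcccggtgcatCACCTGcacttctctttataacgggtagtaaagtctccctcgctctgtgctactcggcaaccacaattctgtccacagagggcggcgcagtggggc
LAMB3 upstream start: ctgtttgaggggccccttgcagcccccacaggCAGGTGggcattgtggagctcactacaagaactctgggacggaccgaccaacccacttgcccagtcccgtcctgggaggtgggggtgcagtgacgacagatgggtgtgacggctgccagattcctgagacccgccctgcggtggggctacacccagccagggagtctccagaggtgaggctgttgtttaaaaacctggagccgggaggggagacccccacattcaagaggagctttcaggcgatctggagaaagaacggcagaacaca
LAMB3 downstream start: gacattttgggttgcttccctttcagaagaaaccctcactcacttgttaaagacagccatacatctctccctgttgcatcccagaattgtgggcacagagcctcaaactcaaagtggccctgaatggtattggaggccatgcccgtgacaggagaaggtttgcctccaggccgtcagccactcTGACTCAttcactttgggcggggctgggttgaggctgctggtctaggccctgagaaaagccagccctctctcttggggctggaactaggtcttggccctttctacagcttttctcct
The downstream ITGA6 window and the middle LAMB3 window held neither motif. Of the 3 DST windows, 1 held TGANTCA and none held CACCTG. The LAMA3 window, of a gene with no probe set here, held CACCTG at 1 place and TGANTCA at 2, and 1 pair of these matches overlapped. In the windows printed no match to one motif overlapped a match to the other. ITGB4, PLEC and CD151 had no window in the table used. Of 35116 such windows in the table, 20.6% held CACCTG and 7.71% held TGANTCA. A match describes letters and shows no binding.

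CD151, the tetraspanin partner of the receptor, read 531 and 842 in E-cadherin-low CD133-high and CD133-low cells, against 645 and 912 in E-cadherin-high CD133-high and CD133-low cells by its single probe set. The E-cadherin ratios were -0.28 and -0.11. The CD133 ratios were -0.67 among E-cadherin-low and -0.50 among E-cadherin-high cells, so both CD133-high arrays were below both CD133-low arrays, as in 25.5% of the 22798 probe sets above the floor on all 4 arrays. Of the 6 members above the floor throughout, CD151 was the 1 separated in this way for CD133 and ITGA6 201656_at the 1 separated the other way, which 24.0% of those probe sets were. For E-cadherin, ITGB4 204990_s_at and ITGA6 215177_s_at were lower on both E-cadherin-low arrays, and the DST probe sets 212254_s_at and 215016_x_at were higher, as were 13.5% of those probe sets. Separation of 2 arrays from 2 was thus common over the whole array and sets no member apart. ITGA6 by 201656_at and CD151 thus lay on opposite sides of 0 in all 4 pairs of arrays, each by less than 2-fold.

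DST, whose isoforms serve epithelium, nerve and muscle, had 10 probe sets with unlike signals. Probe set 215016_x_at read 452 and 497 in E-cadherin-low CD133-high and CD133-low cells, against 376 and 437 in E-cadherin-high CD133-high and CD133-low cells. Probe set 212254_s_at read 377 and 419 in the E-cadherin-low cells, against 276 and 376 in the E-cadherin-high cells. These 2 probe sets agreed in direction in every pair. The E-cadherin ratios were 0.26 and 0.19 for 215016_x_at and 0.45 and 0.16 for 212254_s_at, among CD133-high and CD133-low cells. The CD133 ratios were -0.14 and -0.21 for 215016_x_at and -0.15 and -0.44 for 212254_s_at, among E-cadherin-low and E-cadherin-high cells.

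Of the other 8 DST probe sets, 6 were under every floor, with signals of 2.07 to 41.0, and 2 were above it on 1 array each. Probe set 212253_x_at read 86.2 in E-cadherin-high CD133-low cells and at most 19.8 elsewhere. Probe set 215810_x_at read 55.3 in E-cadherin-high CD133-high cells, just above that array's floor of 53.7. The suffix of these 2 and of 215016_x_at, _x_at, marks probes that may also match other genes. The isoform each probe set reads is not given in the files used here.

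PLEC, the other plakin, and LAMB3, the beta-3 chain of laminin-332, gave no ratio. The PLEC probe sets 201373_at and 216971_s_at read 10.2 to 27.5 and 3.33 to 9.10. LAMB3 read 49.8 and 4.15 in E-cadherin-low CD133-high and CD133-low cells, against 35.8 and 49.5 in E-cadherin-high CD133-high and CD133-low cells, all below the floors. COL17A1, the gene of the hemidesmosomal collagen, has no probe set named for it here and was not analysed. The arrays therefore held values above the floor for the receptor chains, for CD151 and for DST, and none for PLEC or LAMB3.

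Counted over a 2-fold difference in the same direction in both pairs of a sort, 1 of the 21 probe sets was lower in E-cadherin-low cells, ITGB4 204990_s_at, and 0 were higher. Among 32551 probe sets above the floor on at least 1 array, 0.402% were lower and 0.384% were higher by that rule. For CD133 none of the 21 was counted, against 1.85% higher and 0.952% lower in CD133-high cells over all probe sets. Within single pairs, 204990_s_at was again the 1 member past 2-fold for E-cadherin, where 2.17% of all probe sets were lower and 3.63% higher in the CD133-high pair. In the CD133-low pair 2.76% were lower and 2.86% higher. No member was past 2-fold within a CD133 pair in either direction, where 4.15% were lower and 7.12% higher among E-cadherin-low cells, and 3.53% and 4.61% among E-cadherin-high cells. For 10 members with a signal above a floor, 1 or 0 counted is too few to set apart from these shares.

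The 10 members above a floor had a median E-cadherin ratio of 0.00 among both CD133-high and CD133-low cells, as had all 32551 probe sets. Their E-cadherin ratios ran from -1.11 to 0.94 among CD133-high and from -1.60 to 0.37 among CD133-low cells. The 5th and 95th percentiles of all probe sets were -0.71 and 0.88 in the first of these pairs and -0.81 and 0.82 in the second. Members beyond them were 204990_s_at in both pairs and the bound for 204989_s_at in the first. The median CD133 ratios of the members were 0.00 among E-cadherin-low and -0.09 among E-cadherin-high cells, and the 0.00 is again a value set below a floor. Their ranges were -0.67 to 0.95 and -0.68 to 0.57, inside the 5th and 95th percentiles of all probe sets.

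**Figure D2:**
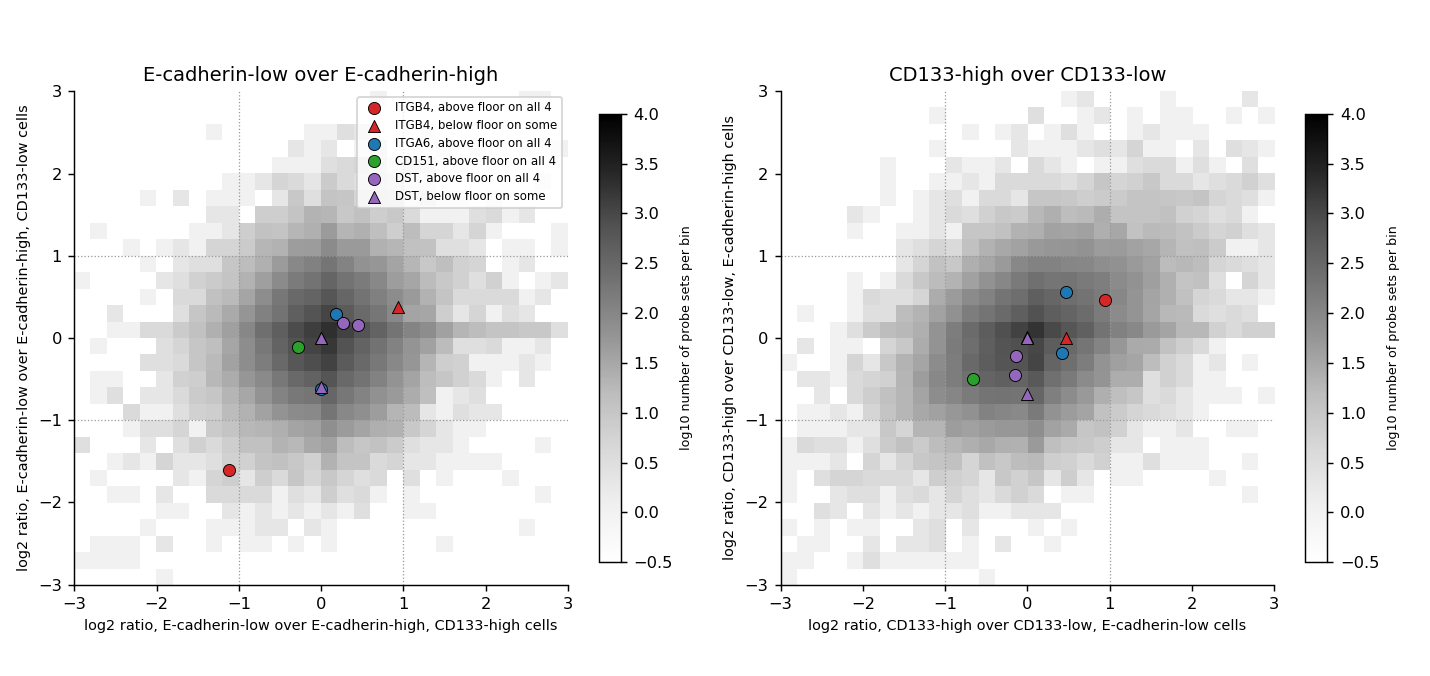
Log2 ratios of the 10 members above a floor in the 2 pairs of each sort, over a grey density of all 32551 probe sets, with dotted lines at 2-fold. One ITGB4 probe set lies past both lines at -1.11 and -1.60 in the left panel, another ITGB4 probe set lies on the opposite side, and no member lies past both lines in the right panel.

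Genes around this junction were read through their brightest probe set. Of 78 listed genes, 72 had a named probe set and 60 lay above a floor on at least 1 array. Lower in E-cadherin-low cells in both pairs were 2 of the 60, and 0 were higher, against 0.54% lower and 0.476% higher among 14083 genes. The 2 were DSP and EPPK1, both in the list of other plakins and keratins. DSP encodes desmoplakin, the plakin of desmosomes, and read 505 and 705 in E-cadherin-low CD133-high and CD133-low cells, against 3657 and 8212 in E-cadherin-high CD133-high and CD133-low cells. EPPK1 encodes epiplakin, a keratin-binding plakin, and had E-cadherin ratios of -1.42 and -1.12. Its other probe sets above the floor on all arrays went the same way, with -1.35 and -1.10 for 232165_at and -0.53 and -0.74 for 208156_x_at.

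For CD133, 2 of the 60 genes were counted as lower in CD133-high cells and 0 as higher, against 1.12% lower and 2.45% higher among all genes. LAMA1, the laminin alpha-1 chain, read 83.9 in CD133-high against 208 in CD133-low cells among E-cadherin-low cells, and 70.7 against 461 among E-cadherin-high cells. TLL2, a metalloprotease of the BMP1 family, had log2 ratios of -1.29 and -1.59, but its probe set 215008_at had -1.22 and 0.35. None of the other lists held a gene counted for either sort. Those were the laminin receptors with 4 genes above a floor, the tetraspanins with 16, basement membrane genes with 8, focal adhesion genes with 12, and other hemidesmosome and anchoring genes with 1. In that last list the anchoring fibril collagen COL7A1 was above a floor, and the basal keratins KRT5 and KRT14 were below it on every array.

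The list medians of the E-cadherin ratio among CD133-high and CD133-low cells were -0.08 and -0.49 for other laminin chains, -0.22 and -0.45 for laminin receptors and -0.18 and -0.22 for tetraspanins. They were -0.26 and -1.16 for other plakins and keratins, 0.15 and -0.23 for basement membrane genes, 0.38 and -0.24 for focal adhesion genes and 0.50 and -0.30 for proteases. For COL7A1, the 1 gene of its list, they were 0.19 and a bound of 0.93, as it lay below the floor in E-cadherin-high CD133-low cells. The median over all 14083 genes was 0.00 in each of the 4 pairs, counting genes whose ratio was set to 0 below a floor. The medians of the CD133 ratio among E-cadherin-low and E-cadherin-high cells were 0.42 and 0.19 for other laminin chains, 0.33 and -0.05 for laminin receptors, -0.05 and -0.11 for tetraspanins and 0.09 and -0.17 for other plakins and keratins. They were 0.40 and -0.14 for basement membrane genes, 0.06 and -0.24 for focal adhesion genes and -0.00 and -0.61 for proteases. For COL7A1 they were 0.58 and a bound of 1.32. ITGB1 and ITGA3, which encode the other receptor for laminin-332, are named here after their values were seen. ITGB1, the beta-1 chain, had E-cadherin ratios of 0.48 and -0.23 and CD133 ratios of 0.64 and -0.07. ITGA3, the alpha-3 chain, read 85.0 and 92.3 in E-cadherin-low CD133-high and CD133-low cells, against 105 and 108 in E-cadherin-high CD133-high and CD133-low cells.

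**Figure D3:**
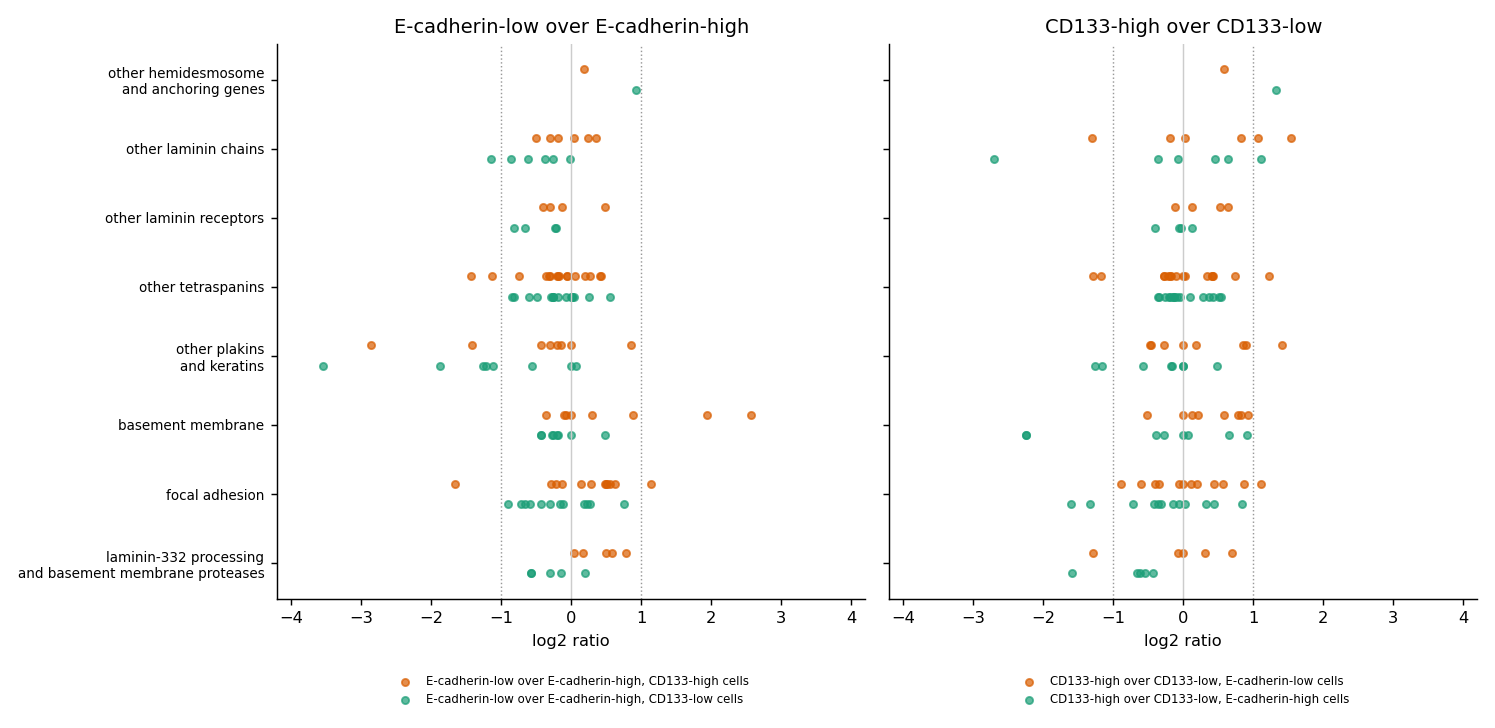
Log2 ratios of the 60 genes around the hemidesmosome that lay above a floor, by list and by pair of arrays, with dotted lines at 2-fold. The 2 genes beyond the left line in both E-cadherin pairs, DSP at -2.86 and -3.54 and EPPK1 at -1.42 and -1.12, are in the list of other plakins and keratins.

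Markers of epithelial and mesenchymal cells were read on the same arrays. Of 5 epithelial markers, 4 were above the floor on all arrays and KRT19 was below it on all. Their summed signal was 15603 and 15134 in E-cadherin-low CD133-high and CD133-low cells, against 29506 and 31065 in E-cadherin-high CD133-high and CD133-low cells. That sum includes CDH1, the gene sorted on, which was the 1 epithelial marker past 2-fold in both pairs. The others had E-cadherin ratios of -0.91 and -1.51 for EPCAM, -0.44 and -0.55 for KRT18 and -0.30 and -1.88 for KRT8. Of 4 mesenchymal markers, 2 were above the floor on all arrays and CDH2 on none, with sums of 21612 and 14079 in the E-cadherin-low cells, against 12735 and 1923 in the E-cadherin-high cells. Most of each sum was VIM, the gene for vimentin, with 20200 and 12938 in the E-cadherin-low cells, against 12448 and 1740.2 in the E-cadherin-high cells. ZEB1 was the 1 mesenchymal marker past 2-fold in both pairs, and FN1, the gene for fibronectin, had the opposite sign, with -0.40 and a bound of -0.73. The basal epithelial markers KRT5 and KRT14 were below the floor on all arrays, and TP63 had no named probe set. Among 4 fibroblast markers PDGFRB was below every floor, and the sums were 2187 and 214 in the E-cadherin-low cells, against 884 and 330 in the E-cadherin-high cells. Of 3 endothelial markers VWF and CDH5 were below every floor, and the sums were 142 and 186 in the E-cadherin-low cells, against 171 and 166 in the E-cadherin-high cells. Of 3 leukocyte markers CD68 had no named probe set and 1 was above the floor on all arrays. The sums without CD68 were 1161 and 524 in the E-cadherin-low cells, against 1275 and 408 in the E-cadherin-high cells. Each of these pairs of sums gives CD133-high cells and then CD133-low cells. For CD133, 3 of these genes were past 2-fold higher in CD133-high cells in both pairs by their brightest probe sets. They were PTPRC of the leukocyte list and DCN and LUM of the fibroblast list. Of all genes 2.45% were. The log2 ratios among E-cadherin-low and E-cadherin-high cells were 1.13 and 1.85 for PTPRC and 3.41 and 1.46 for LUM. For DCN they were a bound of 2.65, and 1.17. Other probe sets of PTPRC and DCN above a floor had the same sign but did not pass 2-fold in both pairs. For PTPRC they gave 0.83 and 1.60 (207238_s_at) and 0.66 and 2.22 (212587_s_at). For DCN they gave bounds of 1.23 and 0.46 (211896_s_at) and of 0.61 and 0.24 (211813_x_at). The other markers of these 2 lists were not counted. The E-cadherin ratios of ITGB4 204990_s_at and 204989_s_at had opposite signs, and the part of these markers in the ratios of either was not tested.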

How the data were processed

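Signals of 4 one-colour arrays were used, 1 per subpopulation. The deposited intensity values are linear, and per the submitters' processing notes they were made with MAS5 (no version given in the sources used here). With the highest and lowest 2% of values trimmed, each array's mean intensity was 499.9, which shows scaling per array before deposit. Detection calls and batches are not given in these sources. Probe sets were named from the platform annotation, leaving out 62 controls and probe sets with several symbols. The gene IDs of all 21 member probe sets matched RefSeq.

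Signals under the 50th percentile of an array were set to it, and log2 ratios were taken within pairs of arrays that differ in 1 sort. A ratio with 1 side at the floor is a bound. A probe set above 1 floor but below that of the other array got a ratio of 0, as did one below both. A feature counted when both pairs passed 2-fold with the same sign. Genes around the junction were represented by the probe set brightest on average (log2).

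Named are all members, CDH1, PROM1 and COL17A1, up to 4 counted genes per list, and the 3 genes closest in pattern to a member spanning at least 1 log2 unit. ZEB1, ITGB1, ITGA3, COL4A1, COL4A2 and marker or list genes outside that rule were named after their values were seen. Members and lists were chosen with earlier results of these data known. The procedure was tested on simulated data. Alternatives changed the scaling (quantile normalization or equal array medians), the floor (none, or the 25th or 65th percentile), the threshold (1.5-fold or 3-fold) and the probe sets (without shared ones, or their mean per gene), or used an additive limma fit with 1 residual degree of freedom. Tools were Python 3.11.15, numpy 2.4.6, pandas 2.3.3, matplotlib 3.10.9, R 4.3.3 and limma 3.58.1. The number of arrays limits the precision.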

Additional observations from a re-analysis of the deposited data

Results flagged for a closer look

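Some ratios went in opposite directions in the 2 pairs of a sort. Each direction rests on 1 pair of arrays, and the differences were not tested. ITGA6 by 215177_s_at had CD133 ratios (log2, high over low) of 0.42 among E-cadherin-low and -0.19 among E-cadherin-high cells, which differ by 0.61. CDH1 had CD133 ratios of -0.60 and 0.65 in the same order, a difference of -1.25. LAMA1 had E-cadherin ratios (log2, low over high) of 0.25 among CD133-high and -1.15 among CD133-low cells, a difference of 1.40. ITGB1 had E-cadherin ratios of 0.48 and -0.23, and its 2 CD133 ratios differ by the same 0.71.

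By their brightest probe sets COL4A1 and COL4A2, the paired chains of basement membrane collagen IV, were low on 1 array. COL4A1 read 758 and 694 in E-cadherin-low CD133-high and CD133-low cells, against 198 and 937 in E-cadherin-high CD133-high and CD133-low cells. COL4A2 read 362 and 241 in the E-cadherin-low cells, against 61.0 and 289 in the E-cadherin-high cells. The 2 E-cadherin ratios differ by 2.37 for COL4A1 and by 2.83 for COL4A2, and so do the 2 CD133 ratios of each gene. Their dimmer probe sets, 211981_at of COL4A1 and 211966_at of COL4A2, lay below the floor in E-cadherin-high CD133-high cells, at 9.38 and 7.75. They also lay below it in E-cadherin-low CD133-low cells, at 22.3 and 28.3, so they cannot order these 2 arrays.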

How the results depend on the processing

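The count of 1 member lower in E-cadherin-low cells, ITGB4 204990_s_at, was 1 under quantile normalization, equal array medians, the 1.5-fold threshold, no floor and the 25th percentile floor. It was 0 with the floor at the 65th percentile, without shared probe sets, at the 3-fold threshold and in the additive limma fit. That fit takes the effects of the 2 sorts to add on the log2 scale, and counts any departure from this as residual. Its lowest adjusted p of a member was 0.193 for E-cadherin and 0.252 for CD133, both for 204990_s_at. An unadjusted p under 0.05 was found for 2 and 1 members, and the share of all probe sets under it was not computed. The E-cadherin ratios of 204990_s_at kept their sign under every floor and scaling tried. With no floor, 1 member was higher in E-cadherin-low cells, ITGB4 204989_s_at, at log2 1.32 and 3.45, and 2 were lower in CD133-high cells; with the floor at the 25th percentile the counts were 1 and 1. Both rest on signals below the 50th percentile of an array, and shares over all probe sets were not computed at these floors. Members above a floor numbered 21 with no floor, 17 at the 25th and 6 at the 65th percentile.

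The median CD133 ratio among E-cadherin-low cells was 0.42 with no floor and 0.13 with the floor at the 25th percentile, and that among E-cadherin-high cells was -0.20 with the floor at the 65th. Without shared probe sets 1 member, ITGA6 201656_at, was above a floor, so the 4 medians are its ratios of 0.19, 0.29, 0.47 and 0.57. Equal array medians shifted E-cadherin ratios among CD133-high cells by -0.17 (log2) for members above the floor on both arrays and for ITGB4 204989_s_at. The shift was -0.11 for 211905_s_at, -0.04 for 215810_x_at and 0 for members below both floors. No member ratio took the opposite sign under the 5 scalings and floors, but a ratio set to 0 could not do so. With no floor 54 of the 84 member ratios moved by at least 0.1 on the log2 scale, and with the floor at the 25th percentile 34.

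Of genes around the junction, 5 were lower in E-cadherin-low cells with no floor and 5 at the 25th percentile floor, 1 at the 3-fold threshold, 1 as means over probe sets and 0 in the limma fit (lowest adjusted p 0.0829, for DSP). Higher in CD133-high cells were 2 with no floor and 4 at the 1.5-fold threshold. Shares over all genes were not computed under the altered floors, thresholds and probe sets, so these counts say nothing about the listed genes against the array. Lower in CD133-high cells were 1 with the floor at the 65th percentile, 1 without shared probe sets, 1 as means over probe sets, 0 at the 3-fold threshold and 0 in the limma fit (lowest adjusted p 0.0769, for TLL2). The limma fit called 0 of all 14083 genes in either direction for E-cadherin, so 0 of the listed genes sets them apart from none. In CD133-high cells it called 27 higher and 28 lower. An unadjusted p under 0.05 was found for 4 of the 60 genes for E-cadherin and 12 for CD133. The share of all genes under it was not computed. The cause was not tested for any of these beyond what each setting removes. No paired analysis was possible because each subpopulation has 1 array, so that the shared replicate number pairs nothing.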
